A study of Mus musculus with 12 samples.

Results

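The genes described here are the fibroblast growth factors (FGFs), their receptors and the FLRT proteins that bind the receptors, in testes of mouse embryos at E14.5. They were chosen by symbol: all Fgf genes, Fgfr1 to Fgfr4, Fgfrl1, the co-receptor genes Kl and Klb, and Flrt1 to Flrt3. The rule found 32 of the 24470 genes in the count table, and 19 of the 32 passed a filter on low counts and could be tested. The study deleted Nr2f2, which encodes the nuclear receptor COUP-TFII of the interstitial cells, and asked what its loss does to the fetal testis. RNA was sequenced from 6 control pools (Nr2f2 f/f, without CreER) and 6 conditional knockout (cKO) pools (Wt1 CreER with Nr2f2 f/f), each made from 3 testes. All embryos carried the floxed Nr2f2 alleles, and tamoxifen was given to the pregnant females at E11.5 and E12.5. The Cre recombinase is driven from Wt1, a gene that Sertoli cells also express, the floxed allele turns on a LacZ reporter once it is recombined, and the study describes the deletion as incomplete, so that cKO testes keep some cells with Nr2f2. The labels do not say whether pools came from separate litters, so the p-values measure the spread between these pools.

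FGFs are signalling proteins that bind receptor tyrosine kinases together with heparan sulfate on the cell surface. A bound receptor passes its signal through FRS2 and RAS to the MAP kinases, which switch on ETV transcription factors and a set of inhibitors, such as Sprouty proteins and dual specificity phosphatases, that damp the same pathway. In the gonad, Fgf9 acts in the early XY gonad to keep Sox9 on and Wnt4 low, and XY mice without it can form ovaries in place of testes. Fgf10 is a ligand made by mesenchyme that acts on neighbouring epithelium through an isoform of Fgfr2, and Fgf2 is a ligand without a classical secretion signal that is stored in the matrix.

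Of the 19 genes tested, Fgf2 and Fgfr1 fell in cKO testes and Fgf10 rose (quasi-likelihood test of edgeR, p adjusted by Benjamini-Hochberg, threshold 0.05). Fgf2 fell by 0.82 on the log2 scale (SE 0.12) and Fgfr1 fell by 0.34 (SE 0.07), while Fgf10 rose by 0.94 (SE 0.19). The 2 genes that fell compare with 4.85% of the 15572 genes tested that were lower in cKO testes, and the 1 that rose with 3.28% that were higher. Fgf9 did not pass the test, at a log2 fold change of 0.06 (SE 0.15, adjusted p = 0.825). The median log2 fold change was -0.09 over the 19 genes and 0.00 over all genes tested, and 6 of the 19 had an unadjusted p under 0.05, beside 25.2% of all genes tested.

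Total counts per library ran from 7044531 to 39965574 in controls and from 7322959 to 59404778 in cKO pools. Nr2f2 itself had 162 to 186 CPM (counts scaled to library size) in controls and 50.2 to 119 CPM in cKO pools, with the highest in cKO replicate 2 (log2 fold change -1.21, adjusted p = 0.000548). Xist, the RNA that coats an inactive X chromosome, had over 100 CPM in 4 libraries, control replicate 1 (891 CPM) and cKO replicates 3, 5 and 6 (304, 507 and 433 CPM), and 5.16 to 7.68 CPM in the other 8. The Y-linked gene Ddx3y was present in all 12, at 58.3 to 106 CPM. Foxl2, a gene of ovarian granulosa cells, had 14.6 to 47.2 CPM in the 4 libraries with high Xist and 0.23 to 1.30 CPM in the other 8. The labels call all 12 libraries testis, and whether the 4 pools with high Xist also held tissue of other gonads was not tested, which limits what their values say about the testis. Markers of the testis were present in every library: the summed level of 6 Sertoli genes was 682 to 1071 CPM in controls and 621 to 1055 CPM in cKO pools, and none of the 6 passed the test. Markers of contractile and steroidogenic cells were lower in cKO pools, where 6 of 6 smooth muscle genes and 5 of 6 fetal Leydig genes fell, as did 2 of 6 interstitial genes, Tcf21 and Nr2f2, beside 4.85% of all genes tested. Their summed levels in controls and cKO pools were 473 to 581 and 248 to 356 CPM for smooth muscle, 1609 to 2982 and 863 to 1792 CPM for fetal Leydig cells, and 1086 to 1352 and 671 to 1155 CPM for interstitial cells. In the 8 libraries with low Xist 1 of these calls was lost, that of the smooth muscle gene Actg2 (edgeR adjusted p = 0.0604). In whole testes, fewer cells of a type and less RNA per cell cannot be told apart. Since the libraries with high Xist are unequally split between the groups, each test below was also run in the 8 others (5 controls and 3 cKO pools), where 3.39% of 15586 genes were lower and 3.68% were higher in cKO pools. The values in these 8 libraries are given where they change a call of an FGF gene and for some other genes, and the plot of fold changes shows them for all 19 FGF genes.

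The promoter windows that follow show the start of the ligand that fell, of the ligand that rose and of the testis-forming ligand. Each holds the 250 bases before the start of transcription in RefSeq (build GRCm38.p6, which has the coordinates of mm10), on the + strand and read 5′ to 3′. Capitals mark the letters GGTCA on either strand, the core of the AGGTCA element that COUP-TFs and other nuclear receptors bind, and on the + strand a match on the other strand reads TGACC. The windows lie at chr3:37348403-37348652 for Fgf2, chr13:118714449-118714698 for Fgf10 and chr14:58072436-58072685 for Fgf9.
Fgf2: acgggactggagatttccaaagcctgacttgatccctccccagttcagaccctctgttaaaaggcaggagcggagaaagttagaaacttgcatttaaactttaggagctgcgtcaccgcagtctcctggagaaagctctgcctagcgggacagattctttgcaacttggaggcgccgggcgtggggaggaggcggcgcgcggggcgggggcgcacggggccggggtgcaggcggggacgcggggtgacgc
Fgf10: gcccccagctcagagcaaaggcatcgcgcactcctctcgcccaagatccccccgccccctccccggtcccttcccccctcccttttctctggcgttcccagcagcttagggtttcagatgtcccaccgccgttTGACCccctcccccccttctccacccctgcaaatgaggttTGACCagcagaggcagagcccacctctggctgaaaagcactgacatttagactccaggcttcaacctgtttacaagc
Fgf9: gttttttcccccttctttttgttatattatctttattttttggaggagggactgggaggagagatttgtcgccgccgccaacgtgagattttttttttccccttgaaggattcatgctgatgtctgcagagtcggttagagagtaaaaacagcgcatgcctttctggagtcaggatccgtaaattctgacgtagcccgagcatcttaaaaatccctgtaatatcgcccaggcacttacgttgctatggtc

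The Fgf10 window held 2 matches to GGTCA, both as TGACC, and the Fgf2 and Fgf9 windows held none. No match to the longer AGGTCA on either strand was found in these 3 windows. Windows were at hand for 24 of the 32 genes, 31 windows in all, because Fgf12, Fgf13 and Fgfr3 have several starts. GGTCA occurred in 11 of the 31 (35.5%), against 35.2% of 32851 windows of the same length over all genes, and AGGTCA in 3 of 31, against 14.0% of all windows, so GGTCA was about as frequent before these genes as before any gene. AGGTCA contains GGTCA, so the windows with the longer motif are among those with the shorter. The 3 genes with AGGTCA were Fgf6, Fgf7 and Fgf12. The windows differed in base composition, with 62.4% G and C and 20 CpG dinucleotides for Fgf2, 61.2% and 8 for Fgf10, and 44.8% and 11 for Fgf9, where the median window of all genes had 52.4% and 6. A match to these letters is a description of the sequence and not evidence of binding.

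Fgf9, on chromosome 14 (mm10, 58072686 to 58112720, + strand), belongs to the subfamily of Fgf9, Fgf16 and Fgf20, whose proteins diffuse to neighbouring cells. It had 6.41, 7.93, 9.43, 8.14, 10.5 and 6.94 CPM in control replicates 1 to 6, and 7.91, 9.26, 7.95, 10.9, 5.97 and 9.06 CPM in cKO replicates 1 to 6. The groups overlapped almost fully: 1 cKO pool lay above every control and 1 lay below every control. The means were 8.22 ± 1.52 CPM (SD, n = 6) in controls and 8.50 ± 1.65 CPM (SD, n = 6) in cKO pools. With each library left out in turn, the log2 fold change of Fgf9 ran from -0.03 (without cKO replicate 4) to 0.14, and in the 8 libraries with low Xist it was 0.12 (adjusted p = 0.618). A change of Fgf9 beyond the spread between pools was therefore not detected. The 4 libraries with high Xist had 5.97 to 9.06 CPM, and the 2 lowest Fgf9 values of all were among them.

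Its relatives Fgf16 and Fgf20 had few counts. Fgf20 had 6 counts over all control libraries and 1 count over all cKO libraries, and all 6 were in control replicate 3. Fgf16 had 28 counts in controls and 75 in cKO libraries, which is 0.178 and 0.404 CPM on average, and 5 of 6 cKO pools lay above every control. Both were too low to enter the test.

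Fgf2, on chromosome 3 (mm10, 37348653 to 37404830, + strand), was the FGF gene that separated the groups in full. It had 4.60, 4.03, 4.42, 3.86, 4.67 and 4.05 CPM in control replicates 1 to 6 and 2.53, 2.78, 2.07, 2.34, 2.58 and 2.34 CPM in cKO replicates 1 to 6. Every cKO pool lay below every control pool, and the means were 4.27 ± 0.34 and 2.44 ± 0.24 CPM (SD, n = 6 each; edgeR adjusted p = 0.000861). Fgf2 was 1 of 19 genes whose pools did not overlap (5.26%), beside 5.52% of all genes tested. Its log2 fold change stayed between -0.86 and -0.78 with each library left out in turn and was -0.73 in the 8 libraries with low Xist (adjusted p = 0.0115). The part of the lower smooth muscle, Leydig and interstitial markers in the level of Fgf2 was not tested. Fgf1, the other member of its subfamily, had 3.20 to 4.48 CPM in controls (median 3.84) and 3.24 to 6.0 CPM in cKO pools (median 4.43). Fgf1 did not pass the test (log2 fold change 0.25, SE 0.16, adjusted p = 0.334, and 0.13 in the 8 libraries), with 3 cKO pools above every control.

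Fgf10, on chromosome 13 (mm10, 118714699 to 118792573, + strand), had 4.49, 6.87, 5.76, 6.12, 3.67 and 4.77 CPM in control replicates 1 to 6 and 13.9, 10.9, 10.7, 11.8, 7.19 and 6.66 CPM in cKO replicates 1 to 6. Of the 6 cKO pools, 5 lay above every control, and replicate 6 lay below the highest control. The means were 5.28 ± 1.18 and 10.2 ± 2.78 CPM (SD, n = 6 each; edgeR adjusted p = 0.00834). The 2 lowest cKO pools, replicates 5 and 6, were also those with the most Xist and the least Nr2f2. Among libraries with low Xist the 5 controls had 3.67 to 6.87 CPM and the 3 cKO pools 10.9 to 13.9 CPM, without overlap. The share of all genes without overlap among so few pools was not computed. The log2 fold change of Fgf10 there was 1.14 (SE 0.17, edgeR adjusted p = 0.0032). Fgf7, the relative of Fgf10 that is also made by mesenchyme and acts on epithelium, had 0.302 to 0.842 CPM in controls and 0.72 to 1.16 CPM in cKO pools. Its log2 fold change of 0.61 (SE 0.25) did not pass the test (edgeR adjusted p = 0.15), and limma-voom with sample quality weights called it (0.84, adjusted p = 0.0245). The other relatives, Fgf3 and Fgf22, had 10 and 8 counts in all controls and 17 and 9 counts in all cKO libraries. Among markers of epithelium of the mesonephros, the duct tissue next to the gonad, 2 of 6 rose in cKO pools (Lhx1 and Pax8), beside 3.28% of all genes. Neither was called in the 8 libraries with low Xist (edgeR adjusted p = 0.107 and 0.0808), where Emx2, another of the 6, fell by 0.33 (adjusted p = 0.0454). The summed level of these 6 genes was 62.3 to 124 CPM in controls and 67.8 to 103 CPM in cKO pools, most of it Emx2 and Krt8. Emx2 had 35.3 to 75.0 and 29.1 to 55.2 CPM, and Krt8 16.6 to 37.9 and 20.8 to 36.8 CPM. Lhx1 had 2.45 to 7.74 and 6.88 to 12.4 CPM, and Pax8 3.01 to 4.84 and 4.51 to 6.38 CPM. Over 12 libraries 5 of the 6 log2 fold changes were positive and 1 (Emx2) was negative. The part of these markers in the level of Fgf10 was not tested.

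Of the remaining secreted ligands that could be tested, none passed the test over 12 libraries. Fgf18, the ligand of the Fgf8 subfamily with the most RNA per length in these testes, had 4.36 to 5.49 CPM in controls and 3.99 to 5.81 CPM in cKO pools (log2 fold change 0.00, SE 0.12). Fgf8, the ligand best known from limb and brain organizers, had 0.434 to 1.01 CPM in controls and 0.258 to 0.793 CPM in cKO pools (log2 fold change -0.48, edgeR adjusted p = 0.306), and its log2 fold change was -0.07 in the 8 libraries with low Xist. Fgf5, known as a brake on hair growth, had means of 0.986 and 0.691 CPM (log2 fold change -0.54, edgeR adjusted p = 0.265). Fgf17, the third member of the Fgf8 subfamily, had 44 counts in controls and 115 in cKO libraries and was not tested. All 4 libraries with high Xist had more Fgf17 (0.487 to 0.921 CPM) than any of the 8 others (0.0813 to 0.397 CPM), control replicate 1 included.

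Ligands with no more than a trace of RNA made up the rest. The 13 genes that could not be tested were Fgf3, Fgf4, Fgf6, Fgf14, Fgf15, Fgf16, Fgf17, Fgf20, Fgf21, Fgf22, Fgf23, Kl and Klb, and none of them averaged 1 CPM in either group. Fgf6, a ligand of muscle, had 0 counts in all controls, which allows up to 0.021 CPM (3 counts over the group), and 4 counts in cKO libraries. The hormone-like FGFs, which act at a distance and need Klotho proteins beside the receptor, were all among these genes: Fgf15 had 5 and 8 counts, Fgf21 had 23 and 35, and Fgf23 had 1 and 4, in controls and cKO libraries. Of their co-receptors, Kl had 26 and 59 counts and Klb had 4 and 26, with 16 of the 26 in cKO replicate 4. Fgf4, a ligand of the early embryo, had 5 and 7 counts, and all 5 of the control counts were in replicate 3. These limits cover counting error only. Fgf3, Fgf4 and Fgf15 are neighbours within 62.3 kb of chromosome 7, and Fgf6 and Fgf23 within 66.8 kb of chromosome 6, so 5 of the 13 untested genes lie in 2 clusters. Of 18 genes for secreted ligands, 8 had enough counts to be tested and 10 did not.

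Fgf11 to Fgf14 encode proteins that stay inside the cell and bind sodium channels rather than FGF receptors. Fgf13, an X-linked gene that also binds microtubules, had 17.4 to 23.0 CPM in controls (median 21.3) and 14.8 to 21.6 CPM in cKO pools (median 18.9), and its log2 fold change was -0.17 (adjusted p = 0.308). Fgf11 had 14.2 to 36.1 CPM in controls and 15 to 30.0 CPM in cKO pools (log2 fold change 0.00, SE 0.25). Its 3 highest libraries were control replicate 1 (36.1 CPM) and cKO replicates 5 and 6 (30.0 and 27.3 CPM), all with high Xist, and the other 9 lay at or below 21.0 CPM. Fgf12 had means of 2.10 and 2.21 CPM (edgeR adjusted p = 0.697), and Fgf14 had 7 and 14 counts. The small RNA genes Mir690 and Mir504 lie within Fgf12 and Fgf13 on the same strand, so reads from these loci cannot be told apart from the host gene.

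**Figure D1:**
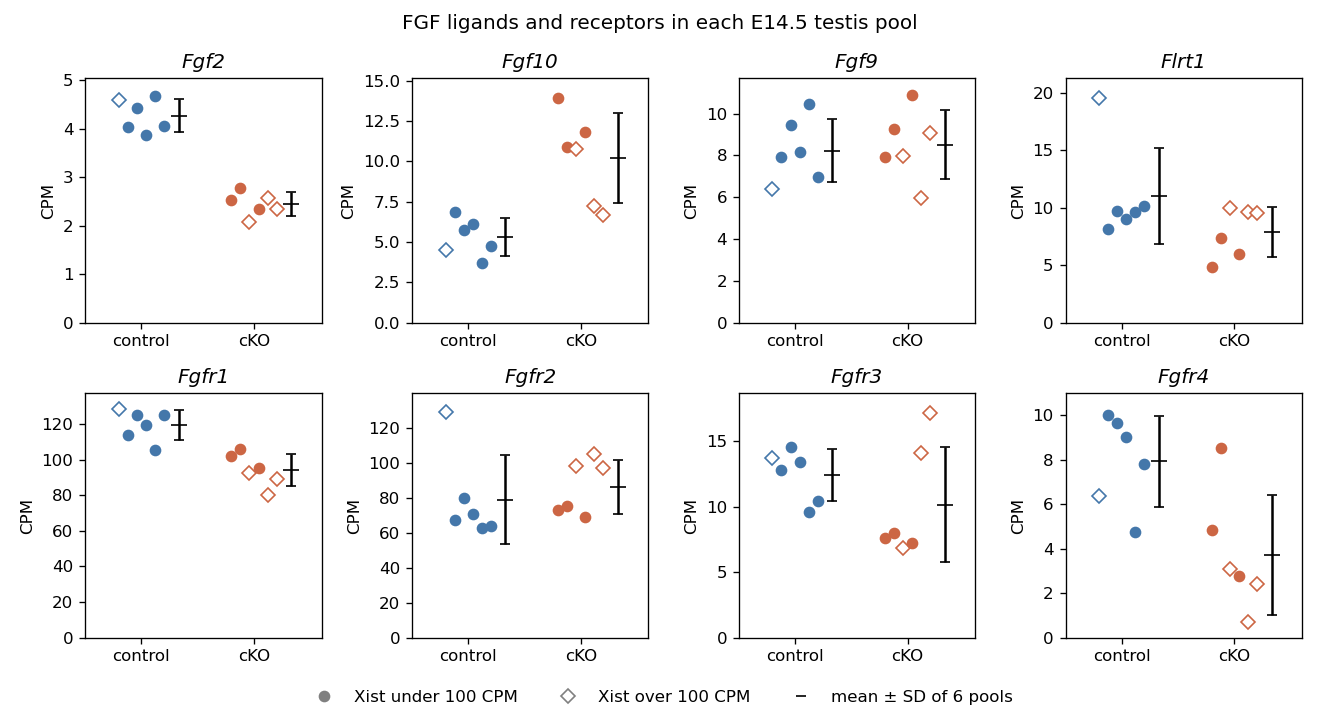
CPM of 8 FGF ligand, receptor and FLRT genes in each testis pool, with 1 point per library and the mean ± SD of 6 pools beside it. Open diamonds are the 4 libraries with Xist over 100 CPM. Fgf2 has no overlap between groups, Fgf9 overlaps almost fully, and the 4 diamonds are the highest Fgfr2 values.

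Levels between genes were compared as CPM per kb of the longest coding transcript. On this scale Fgfr1, Fgfr2 and Fgfrl1 stood above every ligand in control testes. Fgfr1 had 23.7 ± 1.70 CPM per kb (SD, n = 6), Fgfr2 18.3 ± 5.89 and Fgfrl1 18.2 ± 4.14, followed by Flrt2 with 13.9 ± 1.85. The highest secreted ligand was Fgf18 with 4.56 ± 0.42 CPM per kb, and Fgf9 was 11th of 19 with 2.29 ± 0.42. Fgf10 had 1.28 ± 0.29, Fgf1 0.957 ± 0.136 and Fgf2 0.715 ± 0.056 CPM per kb, and Fgf7 was lowest with 0.23 ± 0.07. Most neighbours in this order had overlapping ranges over the 6 control pools. Of 18 neighbouring pairs, the ranges did not overlap in 3, which were Flrt2 above Fgf13, Fgf18 above Fgfr3, and Fgf1 above Fgf2. Both genes of a pair come from the same libraries, and their order within each library was not compared. In cKO testes the order of the first 3 was Fgfr2, Fgfrl1 and Fgfr1 (20.0, 19.9 and 18.7 CPM per kb), with overlapping pools. Fgf10 stood 13th in controls and 9th in cKO testes, at 2.48 ± 0.68 CPM per kb, beside Fgf9 at 2.37 ± 0.46 in cKO testes.

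**Figure D2:**
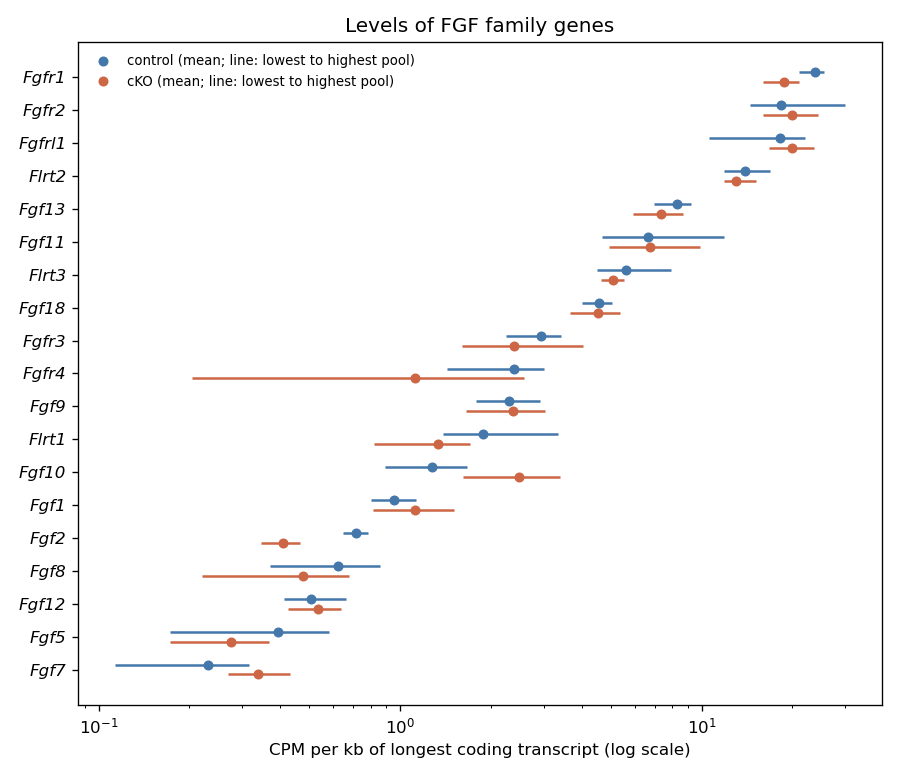
Level of the 19 tested genes as CPM per kb of the longest coding transcript, on a log axis, in order of the control mean. Points are means of 6 pools and lines run from the lowest to the highest pool. Fgfr1, Fgfr2 and Fgfrl1 lead in both groups, and Fgf2 is the gene whose control and cKO lines do not meet.

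Fgfr1, the receptor kinase with the most RNA per length in controls, fell in cKO testes. It lies on chromosome 8 (mm10, 25518759 to 25575718, + strand). It had 128, 114, 125, 120, 106 and 125 CPM in control replicates 1 to 6 and 102, 106, 92.4, 95.3, 80.5 and 89.4 CPM in cKO replicates 1 to 6. Of the 6 cKO pools, 5 lay below every control, and replicate 2 was level with the lowest control (106 CPM in each). Replicate 2 was the cKO pool with the most Nr2f2 and had low Xist. The means were 120 ± 8.58 and 94.3 ± 9.20 CPM (SD, n = 6 each; edgeR adjusted p = 0.0113). The log2 fold change stayed between -0.38 and -0.30 with each library left out in turn. Over the 8 libraries with low Xist it was -0.22 (SE 0.08) and did not pass the test (adjusted p = 0.115), with 106 to 125 CPM in 5 controls and 95.3 to 106 CPM in 3 cKO pools. With Xist over 100 CPM as a term over all 12 libraries it was -0.32 (edgeR adjusted p = 0.0204). As for Fgf2, the part of the lower contractile, Leydig and interstitial markers was not tested.

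Fgfr2, the receptor through which Fgf9 acts in Sertoli precursors and Fgf10 in epithelium, did not pass the test. It had 129, 67.5, 79.7, 70.9, 62.7 and 63.9 CPM in control replicates 1 to 6 and 73.1, 75.1, 98.3, 69.1, 105 and 97.2 CPM in cKO replicates 1 to 6 (log2 fold change 0.12, SE 0.17, edgeR adjusted p = 0.697, and 0.07 in the 8 libraries with low Xist). The samples split by Xist instead: the 4 libraries with high Xist had 97.2 to 129 CPM and the 8 others 62.7 to 79.7 CPM, with no overlap, and each of these ranges holds both genotypes. The part of cells that carry Xist and Foxl2 RNA in the level of Fgfr2 was not tested.

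Fgfr3, a receptor known as a brake on bone growth, had 13.7, 12.8, 14.6, 13.4, 9.56 and 10.4 CPM in control replicates 1 to 6 and 7.58, 8.0, 6.83, 7.20, 14.1 and 17.2 CPM in cKO replicates 1 to 6. In the cKO group, replicates 5 and 6 were about as high as the controls or above them and the other 4 lay below every control. Over 12 libraries Fgfr3 did not pass the test (log2 fold change -0.31, SE 0.23, edgeR adjusted p = 0.404). Without the libraries with high Xist the 5 controls and 3 cKO pools did not overlap (9.56 to 14.6 against 7.20 to 8.0 CPM). The share of all genes without overlap among these pools was not computed. Fgfr3 fell there by 0.70 on the log2 scale (SE 0.14, edgeR adjusted p = 0.0151). With Xist over 100 CPM as a term over all 12 libraries Fgfr3 was not called (log2 fold change -0.53, edgeR adjusted p = 0.166). It was called over all 12 by limma-voom with sample quality weights (-0.71, adjusted p = 0.00399), a fit that called 24.8% of all genes.

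Fgfr4, the receptor best known for Fgf19-type hormones in liver, spread widely among the pools. It had 6.38, 10, 9.65, 9.04, 4.74 and 7.81 CPM in control replicates 1 to 6 and 4.84, 8.53, 3.07, 2.76, 0.678 and 2.39 CPM in cKO replicates 1 to 6. The means were 7.94 ± 2.05 and 3.71 ± 2.71 CPM (SD, n = 6 each), and 4 of 6 cKO pools lay below every control. The log2 fold change of -1.09 (SE 0.37) was the lowest of the 19 but did not pass the test (edgeR adjusted p = 0.0827). Fgfr4 was called by limma-voom, at -1.36 (adjusted p = 0.0183) and, with sample quality weights, at -1.40 (adjusted p = 0.00128). Its log2 fold change was -0.71 (adjusted p = 0.175) in the 8 libraries with low Xist. The adjusted p of Fgfr4 ran from 0.0105 to 0.16 with each library left out in turn, and it passed without control replicate 1 and without cKO replicate 2. In cKO replicate 5 its value rested on 5 counts. Among cKO pools, replicate 2 was highest and replicate 5 lowest both in Fgfr4 and in Nr2f2. Replicate 5 also had the most Xist of these pools (507 CPM). Nr2f2 was 50.2 to 75.4 CPM in cKO replicates 3, 5 and 6, with high Xist, and 78.8 to 119 CPM in replicates 1, 2 and 4. The level of Nr2f2 and that of Xist therefore cannot be told apart among cKO pools.

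Taken per length, Fgfr1 made up 50.7 ± 4.70% of the summed level of the 4 receptor kinases in controls and 44.6 ± 6.08% in cKO testes (SD, n = 6 each). Fgfr2 made up 38.0 ± 5.77% and 47.2 ± 6.22%, Fgfr3 6.20 ± 0.74% and 5.60 ± 2.15%, and Fgfr4 5.11 ± 1.41% and 2.66 ± 1.91%. Within each genotype the share of Fgfr2 was higher in the libraries with high Xist. Control replicate 1 had 49.5% and the other controls 33.4% to 37.2%, while cKO replicates 1, 2 and 4 had 40.6% to 42.8% and cKO replicates 3, 5 and 6 had 50.0% to 55.5%. These shares are a description and were not tested.

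Fgfrl1, a receptor-like protein without a kinase domain, had 24.6 to 51.1 CPM in controls and 38.8 to 55.0 CPM in cKO pools (log2 fold change 0.12, edgeR adjusted p = 0.626). In the 8 libraries with low Xist the log2 fold change of Fgfrl1 was 0.32 (adjusted p = 0.241). The FLRT genes encode membrane proteins that bind FGF receptors and act in cell adhesion and guidance. Flrt2 had means of 98.6 and 92.4 CPM and Flrt3 of 22.4 and 20.3 CPM, and neither passed the test. Flrt1 had 8.13 to 19.5 CPM in controls and 4.80 to 9.96 CPM in cKO pools (log2 fold change -0.50, SE 0.23, edgeR adjusted p = 0.193). Its control values lay between 8.13 and 10.1 CPM apart from control replicate 1 at 19.5 CPM, and the cKO pools with high Xist (9.51 to 9.96 CPM) lay above the other 3 (4.80 to 7.34 CPM). Flrt1 in the 8 libraries with low Xist fell by 0.63 (SE 0.14, edgeR adjusted p = 0.0246), and with Xist as a term over all libraries its log2 fold change was -0.76 (adjusted p = 0.00109). Flrt1 and Flrt3 overlap Macrod1 and Macrod2, and Fgf1, Fgf7, Fgf14 and Fgfr1 overlap other genes, all on the opposite strand, and the counting was done by strand.

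**Figure D3:**
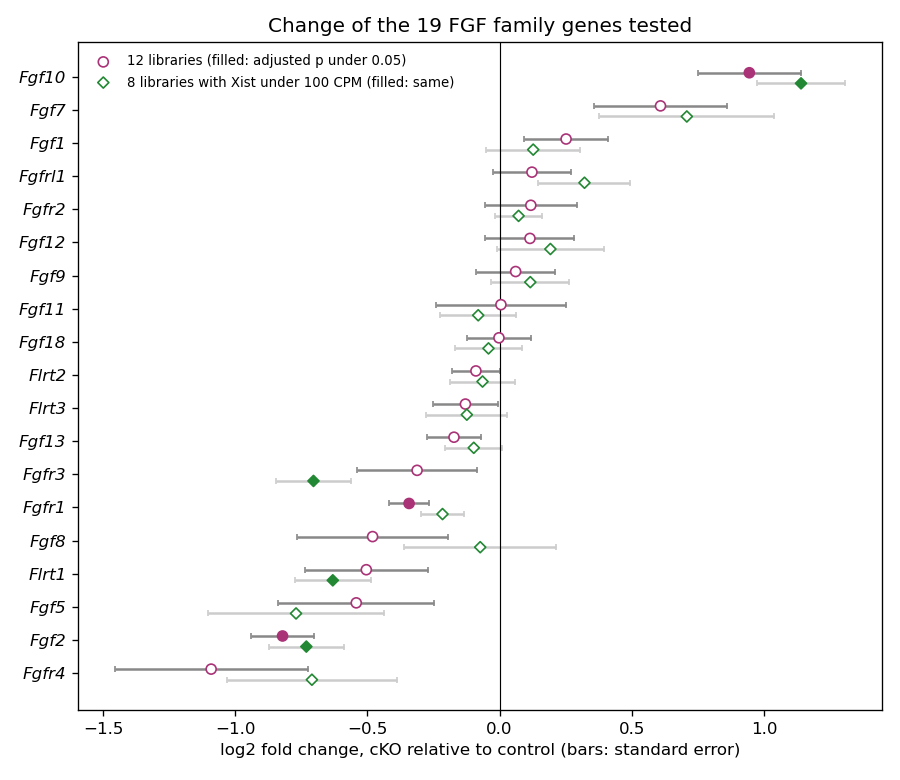
Log2 fold change of the 19 tested genes in cKO relative to control testes, with standard errors, over all 12 libraries (circles) and over the 8 libraries with Xist under 100 CPM (diamonds). Filled symbols have an adjusted p under 0.05. Fgf2 and Fgf10 are filled in both fits, Fgfr1 in the first alone, and Fgfr3 and Flrt1 in the second alone.

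None of the genes that relay the signal inside the cell passed the test. Of 24 genes, from the adaptors Frs2 and Grb2 through the RAS genes to the RAF genes and beyond, edgeR called 0, beside 8.13% of all genes, and 1 (Nras, log2 fold change 0.13) had an unadjusted p under 0.05, beside 25.2%. With DESeq2, 0 of the 24 were called as well, beside 11.6% of all genes it tested. Their median log2 fold change was 0.00, and all lay between -0.12 and 0.24. In the 8 libraries with low Xist edgeR called 0 of the 24 too, beside 7.08% of all genes, and their median was 0.08.

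Genes for heparan sulfate, its enzymes and its core proteins fell in part. Of 29 genes 26 were tested, and 4 were lower and 0 higher in cKO testes (beside 4.85% and 3.28% of all genes), with a median log2 fold change of -0.02. Sulf2, an enzyme that removes sulfate groups from heparan sulfate outside the cell, fell most, by 0.62 (SE 0.13, edgeR adjusted p = 0.00926). It had 304 to 422 CPM in controls and 176 to 323 CPM in cKO pools, of which 5 lay below every control. Sdc2, a syndecan core protein, fell by 0.46 (adjusted p = 0.00644) with no overlap between groups, at 69.6 to 97.5 and 51.6 to 64.1 CPM. Sdc1 and Gpc6, a syndecan and a glypican core protein, fell by 0.45 and 0.43. The calls of Sulf2, Sdc1 and Sdc2 held with each of the 12 libraries left out in turn, and that of Gpc6 in 6 of the 12 fits, with an adjusted p of up to 0.0595 in the others. Without the 4 libraries with high Xist 2 of the 26 were called lower, Sdc1 and Sdc2, beside 3.39% of all genes. Sulf2 and Gpc6 had an edgeR adjusted p of 0.0569 and 0.126 there. Of the enzymes that add sulfate, such as Ndst1, Hs2st1 and Hs6st1, none of those tested passed.

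In the list of feedback and target genes, the called members were all higher in cKO testes. Of 23 genes tested 9 were higher and 0 lower in cKO testes, beside 3.28% and 4.85% of all genes, the median log2 fold change was 0.33, and 21 of the 23 values were positive. The 4 with the largest change were Ccnd1, which drives cells into S phase (1.02, SE 0.12, edgeR adjusted p = 0.000177), Shisa3, an inhibitor that holds back receptors of the FGF and WNT pathways (0.99, SE 0.16), Etv4, a transcription factor switched on by MAP kinase signals (0.85, SE 0.14), and Dusp4, a phosphatase that acts on MAP kinases (0.73, SE 0.14). Ccnd1 had 35.0 to 48.5 CPM in controls and 68.4 to 104 CPM in cKO pools. Shisa3 had 2.73 to 4.92 CPM in controls and 6.35 to 7.32 CPM in cKO pools. Etv4 had 7.63 to 13.7 and 16.6 to 22.6 CPM, and Dusp4 had 9.41 to 18.9 and 22.8 to 30.9 CPM. In these 4 genes, and in Etv5, Dusp5 and Spred2, every cKO pool lay above every control, control replicate 1 included, which makes 7 of 23 without overlap beside 5.52% of all genes.

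The rise did not extend to each gene of the list. Dusp6, another phosphatase of MAP kinases, had a log2 fold change of 0.28 (adjusted p = 0.0617) with 5 of 6 cKO pools above every control, and Spry2 had 0.03 (adjusted p = 0.813). Spry1 and Spry3 had negative values, -0.21 and -0.44, which did not pass the test. Over the 8 libraries with low Xist 9 of the 23 were also higher and 0 lower, beside 3.68% and 3.39% of all genes. The median of the 23 was 0.42 there. Dusp6 (0.37, edgeR adjusted p = 0.0188) and Il17rd (0.42, 0.0363) were among these 9, and Spred2 (0.41, 0.0595) and Dusp5 (0.42, 0.128) were not. With each library left out in turn 6 to 14 were called, with 14 without control replicate 1, where the share of all genes called rose from 8.13% to 19.9%. The calls of Ccnd1, Shisa3, Etv4, Etv5 and Dusp4 held in all 12 of these fits. Dusp5 was called in 11 of them, Etv1 in 9, and Spry4 and Spred2 in 3 each (edgeR adjusted p up to 0.103 and 0.0918). Most of these genes answer to MAP kinase signals from many receptors besides those of FGFs, and the list was written with earlier results of these libraries known, so its count describes these genes and is not independent evidence of their direction. Smooth muscle and fetal Leydig markers moved with the same groups in the opposite direction. Of 6 immune markers 2 rose, Csf1r by 0.44 and Cx3cr1 by 0.92, with every cKO pool above every control, beside 3.28% of all genes higher and 5.52% without overlap. The summed level of the 6 was 33.3 to 44.4 CPM in controls and 48.1 to 59.9 CPM in cKO pools. Both immune genes were also called in the 8 libraries with low Xist, and the mesonephric markers given beside Fgf10 were not called higher there. Of 4 markers of adrenal cortex tested 1 rose, Mc2r by 0.81 (edgeR adjusted p = 0.0157), beside 3.28% of all genes. Of these 4, 3 had a positive log2 fold change and 1 a negative one. Mc2r was also called in the 8 libraries (0.77, edgeR adjusted p = 0.0297). The part of these cell types in the feedback and target genes was not tested.

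**Figure D4:**
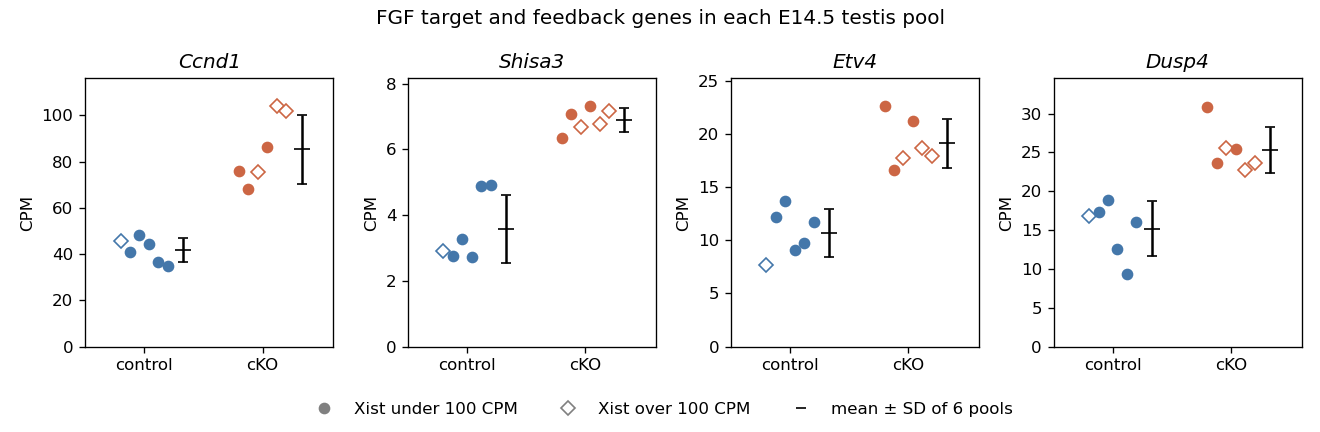
CPM of Ccnd1, Shisa3, Etv4 and Dusp4 in each testis pool, with the mean ± SD of 6 pools beside the points. Open diamonds are libraries with Xist over 100 CPM. In all 4 genes the lowest cKO pool lies above the highest control.

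Of the genes tied to Fgf9 in sex determination, Wnt4 alone passed the test over 12 libraries. Sox9, which Fgf9 helps to maintain, had a log2 fold change of 0.08 (adjusted p = 0.818), and Amh, the Sertoli hormone that removes the female ducts, -0.03 (adjusted p = 0.941). Of 14 genes tested 1 was lower, beside 4.85% of all genes, and 0 were higher. Wnt4, the ovary-promoting signal that opposes Fgf9 and that fetal interstitial cells also make, fell by 0.77 (SE 0.19, adjusted p = 0.0249). It had 110 CPM in control replicate 1, 51.8 to 63.3 CPM in the other controls and 26.0 to 49.5 CPM in cKO pools, without overlap. Without cKO replicate 1 or cKO replicate 4 the call was lost (edgeR adjusted p = 0.0574 and 0.051). Without the libraries with high Xist it fell by 0.84 (adjusted p = 0.00686).

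The same list holds genes that stood out in libraries with high Xist, in all 4 or in some. Fst, a target of Wnt4 and Foxl2 in the ovary, had 19.7 to 65.7 CPM in the 4 libraries with high Xist and 2.83 to 5.39 CPM in the other 8. Stra8, which starts meiosis in germ cells of the fetal ovary, had 87.7 and 73.6 CPM in cKO replicates 5 and 6 and 2.58 to 10.2 CPM elsewhere, control replicate 1 and cKO replicate 3 included, and its log2 fold change of 2.45 (SE 0.87) did not pass the test (adjusted p = 0.0997). Of the 14 genes, 4 (Foxl2, Fst, Bmp2 and Nanos2) were higher and 1 (Wnt4) lower in the 8 libraries with low Xist, beside 3.68% and 3.39% of all genes. Fst, Bmp2 and Nanos2 had log2 fold changes of 0.62, 0.67 and 0.38 there (edgeR adjusted p = 0.0216, 0.0379 and 0.032). Foxl2 had a log2 fold change of 1.45 (SE 0.27, adjusted p = 0.00958) in these libraries, with 0.23 to 0.528 CPM in 5 controls and 0.859 to 1.30 CPM in 3 cKO pools. Of the germ cell genes on the list, Nanos2, a gene that Fgf9 turns on in male germ cells, had means of 32.1 and 34.7 CPM, and Nodal 5.01 and 3.63 CPM, and neither passed the test over 12 libraries.

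**Figure D5:**
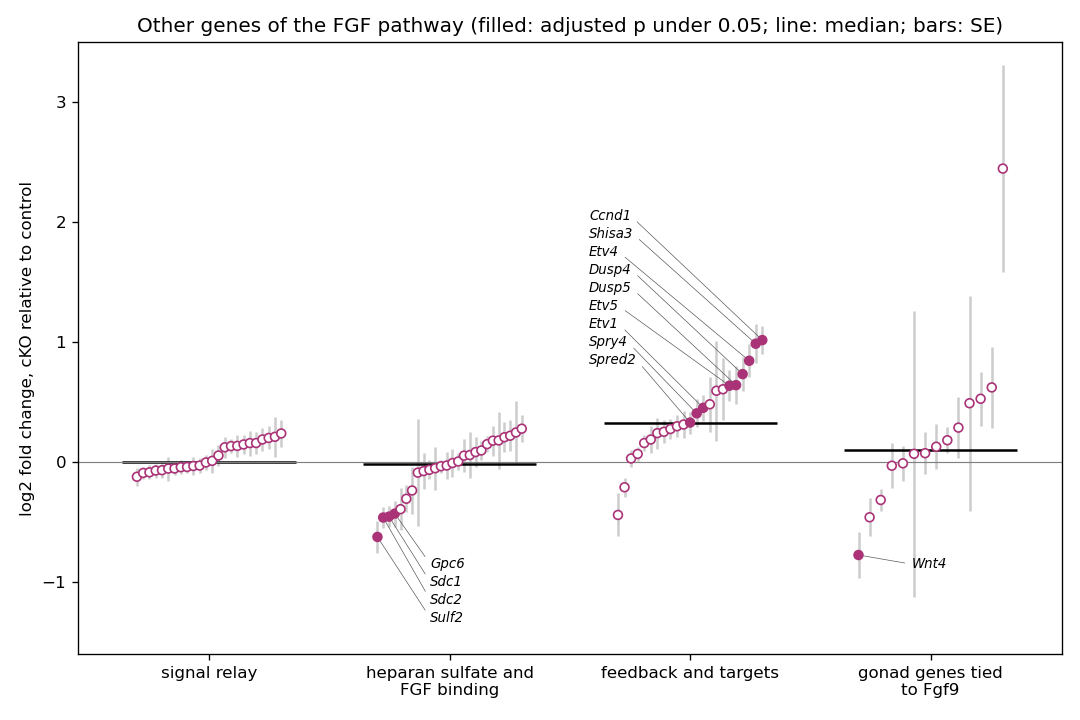
Log2 fold change, cKO relative to control testes, of each tested gene in 4 lists around the FGF genes, with standard errors. Filled points have an adjusted p under 0.05 and are named, and black lines are list medians. The signal relay genes lie near 0, and the feedback and target genes lie mostly above it, with a median of 0.33.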

How the data were processed

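Poly(A) RNA libraries were made from pools of 3 testes by a strand-specific protocol. According to the study's methods and the submitters' processing notes, read pairs were trimmed with Trim Galore 0.6.7, aligned to mm10 with STAR 2.5 and counted by strand on RefSeq Curated genes with featureCounts (Subread 1.5.0-p1). The authors deposited raw counts per gene, without normalization, for 24470 genes in 12 libraries, which totalled 7044531 to 59404778 counts.

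Groups were compared in edgeR 4.0.16 under R 4.3.3 (TMM scaling; filterByExpr, min.count 10, min.total.count 15; glmQLFit and glmQLFTest without covariates). P-values were adjusted by Benjamini-Hochberg over all 15572 genes, with a threshold of 0.05. The standard error was the size of the log2 fold change divided by the square root of F. CPM used TMM-scaled totals. Transcript lengths came from GENCODE on the same build. The study's own comparison used DESeq2, which was an alternative here (1.42.0), as were limma-voom (limma 3.58.1), with and without sample quality weights, other scalings and filters, a replicate block, and leaving out each library. The fits with Xist were added after the data had been seen. Genes named were the called ones, Fgf9, the receptors and those whose pools did not overlap, and of each other list the called genes or, above 8 of them, the 4 with the largest change; further genes were named after their values were seen. The members and lists were chosen with earlier results of these data known. The tests were tested on simulated data, drawn without a split by Xist. There edgeR called 186 genes, of which 13 were false, limma-voom 188 with 14 false, and DESeq2 223 with 42 false. Of 100 genes changed by 1 log2 unit, edgeR recovered 77, limma-voom 79 and DESeq2 84. Part of the results on the relay genes is not reported here.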

Additional observations from a re-analysis of the deposited data

Results flagged for a closer look

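In 6 of 68 groups of 6 pools checked, 1 library lay far from the others by Dixon's criterion, which chance alone meets in about 1 in 20 groups. Control replicate 1, the control with high Xist, was the highest control in 4 of these groups. It had 129 CPM of Fgfr2 beside 62.7 to 79.7 CPM in the other controls, and 36.1 CPM of Fgf11 beside 14.2 to 21.0 CPM. It also had 19.5 CPM of Flrt1 beside 8.13 to 10.1 CPM, and 110 CPM of Wnt4 beside 51.8 to 63.3 CPM. Sulf2 was lowest among controls in replicate 5, at 304 CPM, where the others had 378 to 422 CPM. Dusp4 was highest among cKO pools in replicate 1, at 30.9 CPM, where the others had 22.8 to 25.6 CPM. The part of these libraries' cell content was not tested.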

How the results depend on the processing

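Fgf2 and Fgf10 were called in every alternative run, and Fgfr1 in all but the 8 libraries with low Xist. Over the FGF genes' fold changes, 382 alternative values kept their direction and side of the threshold, 10 newly passed it, 1 no longer did and 22 changed sign. The 22 belong to genes whose reported values lie between -0.13 and 0.12. Fgf18 was 0.026 with total counts only, 0.000482 with a minimum count of 50, 0.000684 with DESeq2 and 0.00441 with Xist as a term. Fgf11 was -0.081 in the 8 libraries and -0.229 with Xist as a term, and Fgfr2 was -0.0643 with that term. Flrt2 was 0.0076 and Flrt3 0.0157 with voom quality weights. Leaving out each library gave -0.025 to 0.143 for Fgf9, -0.115 to 0.268 for Fgf11 and -0.0605 to 0.0558 for Fgf18.

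With quality weights, where 24.8% of all genes were called, 4 of 19 FGF genes were lower and 2 higher. That fit called 4 of 24 relay, 10 of 26 heparan sulfate, 17 of 23 feedback and 4 of 14 gonad genes. The gonad list had 2 calls with DESeq2 size factors, with a minimum count of 50 and with DESeq2. These fits called 8.08%, 8.79% and 11.6% of all genes. In the 8 libraries the gonad list had 5 calls and the heparan sulfate list had 2, beside 7.08% of all genes. In the 8 libraries 3 of 19 FGF genes were lower (Fgf2, Fgfr3 and Flrt1), beside 3.39% of all genes. Leaving out each library gave 2 to 3 lower and 1 to 1 higher FGF genes, 0 to 1 relay, 3 to 7 heparan sulfate, 6 to 14 feedback and 0 to 5 gonad genes. All genes called numbered 1266, and 1919 with DESeq2, 3860 with quality weights, 3106 without control replicate 1 and 816 without cKO replicate 4; the cause was not tested. With the replicate number as a block, 931 genes were called and 4 FGF genes, with Fgfr4 the addition. Same-numbered libraries correlated from -0.334 to 0.242, with 2 of 6 over 0.1, so the numbers were not taken as pairs. Depth limits the 13 genes that were too low to be tested, from 4 counts over all libraries (Fgf6) to 159 (Fgf17).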
